A study of Homo sapiens with 9 samples.

Results

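Interferon-stimulated genes (ISGs) are the genes that cells switch on when an interferon binds its receptor, and 40 of them, typical of the type I interferon response, are described here. They were taken by gene name from a list, not by any measured value, and all 40 were found among the 61552 genes in the files. RNA sequencing had been carried out on MDA-MB-231 cells, an established human triple-negative breast cancer (TNBC) line. The cells were labelled wild type in every group and grew in serum-containing medium for 24 h with no 2-DG (0 mM, the control, which received phosphate-buffered saline), with 10 mM 2-DG or with 20 mM 2-DG. 2-DG (2-deoxy-glucose) is a glucose analogue that enters cells like glucose and blocks glycolysis, and the study used it to alter lactate levels. Each group held 3 libraries, all of 1 cell line. Nothing in the labels says whether the 3 came from separate cultures, so the p-values measure the spread between these libraries, which may be technical.

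Type I interferons bind a receptor whose kinases, JAK1 and TYK2, phosphorylate transcription factors of the STAT family, STAT2 among them. With IRF9 these form a complex that enters the nucleus and binds the interferon-stimulated response element (ISRE), a short promoter sequence. The induced proteins sense foreign RNA, degrade or block it, trap virus particles, tag proteins with the ubiquitin-like protein ISG15, and carry the signal further. Many tumor cell lines express part of this set at a steady level without added interferon.

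The values are FPKM, reads per gene scaled by gene length and by the library total. Levels of different genes can be compared only as far as these lengths hold. The length behind the value was close to the annotated exon length for BST2 (1101 against 1119 bases). It was much longer for some genes, among them OAS1 (13021 against 4947), DDX60 (17337 against 6750) and MX1 (17984 against 8616). OAS3 (18045 against 8251) and IFIT3 (5067 against 2640) were others. A longer length lowers the FPKM, so the levels of such genes against other genes are uncertain. Averages are given as the mean ± SD of the 3 libraries of a group (n = 3), in the order control, 10 mM and 20 mM unless stated otherwise, and fold changes with their SE. The library totals recovered from them lay between 30974968 and 40843638 reads. Libraries of the same group had Pearson correlations of log2(FPKM + 1) between 0.989 and 0.996. The line's mesenchymal markers were expressed, with VIM between 243 and 313 FPKM, and the hormone receptor genes ESR1 and PGR stayed at 0.0204 FPKM or lower. FOXA1 reached 0.0516 FPKM at most, whereas ERBB2 lay between 5.53 and 9.11, EPCAM between 2.61 and 4.51 and GATA3 between 1.17 and 2.34. At an adjusted p under 0.05 (limma), CAV1, CD44 and ERBB2 were lower at both doses and GATA3 at 20 mM only. The log2 fold changes of CAV1 were -0.62 and -0.71 at 10 and 20 mM. Those of ERBB2 were -0.51 and -0.54, and those of CD44 -0.26 and -0.30. VIM, AXL, KRT18 and EPCAM passed at neither dose. Among the blood cell markers, LILRA4 was at 0 in every library, PTPRC, the pan-leukocyte marker, reached 0.0327 FPKM at most, and CD3E and ITGAM 0.0495 FPKM at most. CD14 lay between 1.14 and 3.83 FPKM and made up most of the summed marker level, which ran from 2.45 to 3.91 FPKM without 2-DG, from 1.72 to 2.83 with 10 mM and from 1.18 to 1.84 with 20 mM. Its part in the results was not tested. Libraries leaned by gene length: control replicate 1 and 10 mM replicate 2 ran high in genes of up to 2000 bases (median deviation 0.06 and 0.11 on the log2 scale), and control replicate 2 and 10 mM replicate 1 ran high in genes over 8000 bases (0.07 and 0.12). The 20 mM libraries deviated by at most 0.03 in both classes.

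The ISRE core was searched in the RefSeq promoter windows (GRCh38.p14, 250 bases before to 50 after the start) as GAAANNGAAA, or TTTCNNTTTC for the other strand. A window was found for 33 of the 40 genes, and 22 of the 33 (66.7%) held the core, against 1195 of 27305 genes in all (4.38%). Among the genes that changed at 20 mM 2-DG, as described further on, it stood in 5 of 6 higher genes with a window and in 6 of 8 lower ones, and among the genes called at neither dose in 8 of 15. Such a match is a description of letters in a window and not a mapped binding site. Promoter stretches of 2 genes called higher at 10 mM (IFIH1 and IFIT1) and of 2 called lower (BST2 and IFI6) are shown because the same core stood in genes that moved in opposite directions. Each is written 5′ to 3′ along the gene, with the ISRE core in capitals. They lie at chr2:162318685-162318884 (minus strand), chr10:89392373-89392545 (plus strand), chr19:17405631-17405830 (minus strand) and chr1:27672193-27672392 (minus strand).
IFIH1: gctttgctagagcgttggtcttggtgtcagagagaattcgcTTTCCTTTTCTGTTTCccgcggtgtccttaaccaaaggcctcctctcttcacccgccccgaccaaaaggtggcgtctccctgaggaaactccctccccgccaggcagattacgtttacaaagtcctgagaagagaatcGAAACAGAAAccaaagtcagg
IFIT1: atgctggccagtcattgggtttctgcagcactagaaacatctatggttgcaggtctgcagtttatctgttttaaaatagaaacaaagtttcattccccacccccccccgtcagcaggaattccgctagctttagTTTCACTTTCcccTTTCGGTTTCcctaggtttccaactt
BST2: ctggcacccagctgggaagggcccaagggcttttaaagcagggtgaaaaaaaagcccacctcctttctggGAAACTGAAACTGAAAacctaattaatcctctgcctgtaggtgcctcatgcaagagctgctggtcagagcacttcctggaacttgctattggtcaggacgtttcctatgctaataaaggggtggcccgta
IFI6: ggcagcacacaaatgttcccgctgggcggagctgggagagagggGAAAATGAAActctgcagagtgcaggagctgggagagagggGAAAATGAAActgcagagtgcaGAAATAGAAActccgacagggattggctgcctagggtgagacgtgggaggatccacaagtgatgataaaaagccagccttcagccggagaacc
In IFIH1 2 of the 3 cores overlap, from -159 and -153 relative to the start, and the third lies at -21. The 2 cores of IFIT1 start at -116 and -103, the 2 overlapping cores of BST2 at -130 and -124, and the 3 cores of IFI6 at -156, -115 and -93.

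All 40 genes passed the filter on low values and were among the 16572 genes fitted. At 10 mM 2-DG, 14 of the 40 were significantly upregulated and 7 downregulated against the control, at a Benjamini-Hochberg adjusted p under 0.05 in limma's test over all genes. Of all genes tested, 12.1% were called higher and 17.5% lower at this dose. At 20 mM 2-DG, 9 were upregulated and 9 downregulated, where 15.4% of all genes were called higher and 21.6% lower. On the log2(FPKM + 1) scale of the test, the largest changes at 20 mM were the fall of BST2 (log2 fold change -0.95) and the rise of ISG20 (0.67) and IFIH1 (0.66). By the ratio of mean FPKM, which does not shrink low genes, RSAD2 (3.82-fold) and IFI44L (2.26-fold) rose the most at 20 mM. The 40 genes had median log2 fold changes of 0.05 (10 mM) and -0.05 (20 mM), against -0.01 and -0.02 for all genes tested. Counted by sign alone, 27 of the 40 lay above 0 at 10 mM, where 47.8% of all genes did, and 17 of the 40 at 20 mM, where 46.2% of all genes did. At the thresholds in the study's methods (an unadjusted p under 0.05 together with a log2 change of more than 1 in either direction), 0 of the 40 passed at either dose on log2(FPKM + 1), where 1.74% of all genes passed at 10 mM and 2.92% at 20 mM. When the same thresholds were put on limma-voom (a limma fit to whole read numbers derived from the FPKM), a choice made after the data were seen, IFIH1, RSAD2 and IFI44L passed at 10 mM and RSAD2 and IFI44L at 20 mM, all higher, where 9.58% and 12.8% of all genes passed in either direction. Both doses are set against the same 3 control libraries. In bulk RNA, a change in every cell and a change in some of the cells cannot be told apart.

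**Figure D1:**
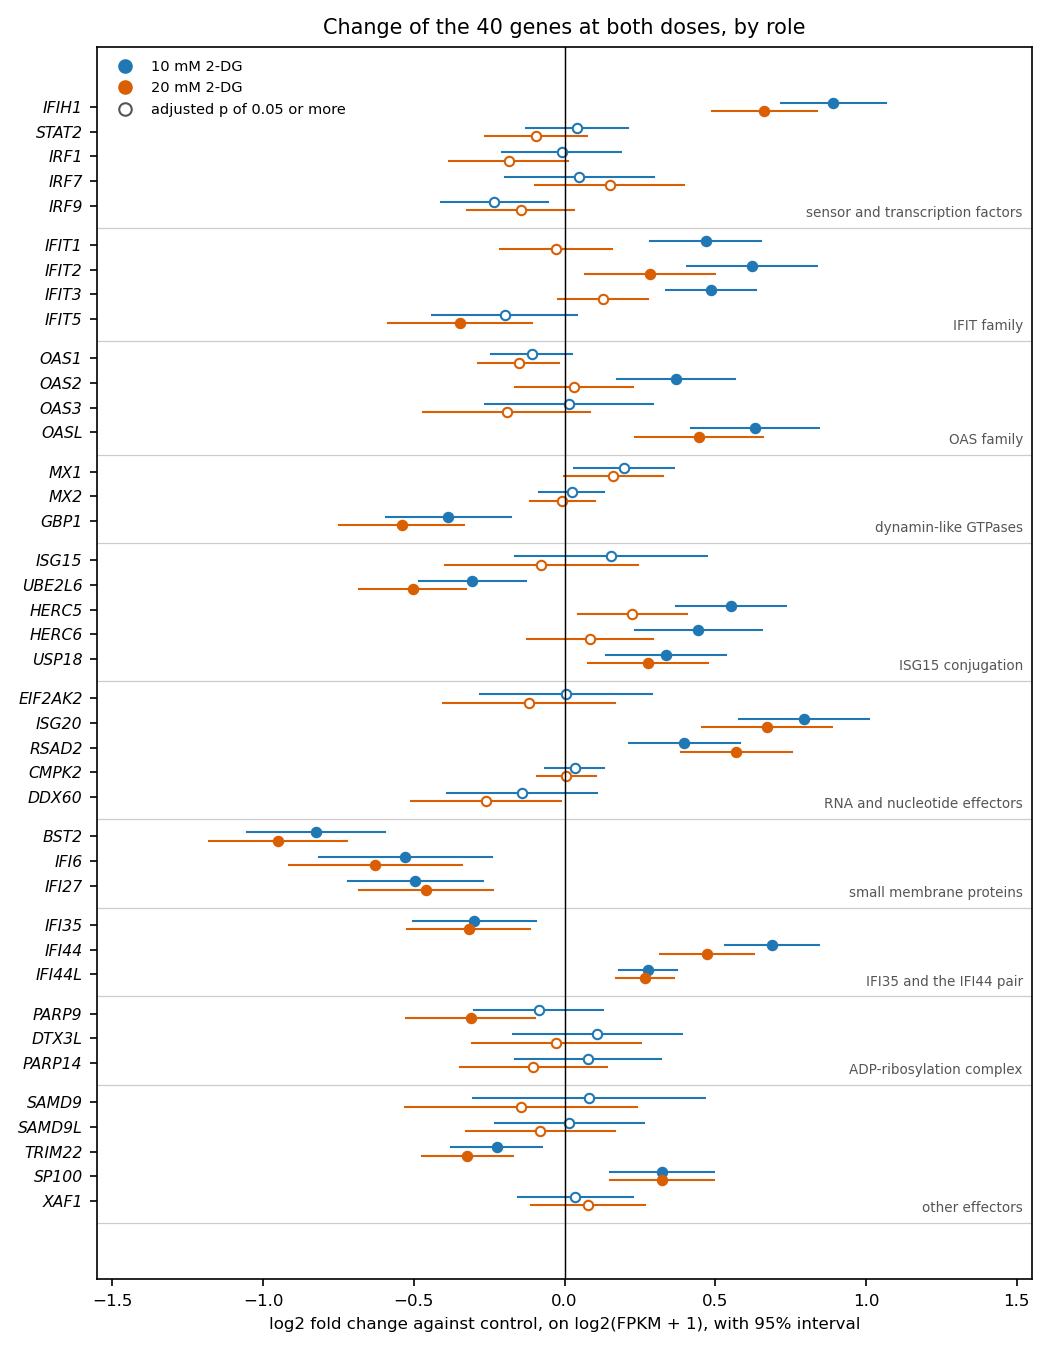
Log2 fold change of each of the 40 genes against the control, on log2(FPKM + 1), at 10 mM (blue) and 20 mM 2-DG (orange), with 95% intervals from limma, grouped by role. Filled points have an adjusted p under 0.05. Values run from -0.95 for BST2 at 20 mM to 0.89 for IFIH1 at 10 mM, and 4 of the 10 role groups hold filled points on both sides of 0.

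In the plot of fold changes by role, the IFIT genes, the ISG15 system, the group of IFI35 with the IFI44 pair and the remaining effectors each held genes called in opposite directions, and the small membrane proteins were all called lower. In the heatmap of the single libraries, the genes at the top and the bottom kept their direction in all 6 treated libraries, and the middle of the list varied between libraries of the same dose.

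**Figure D2:**
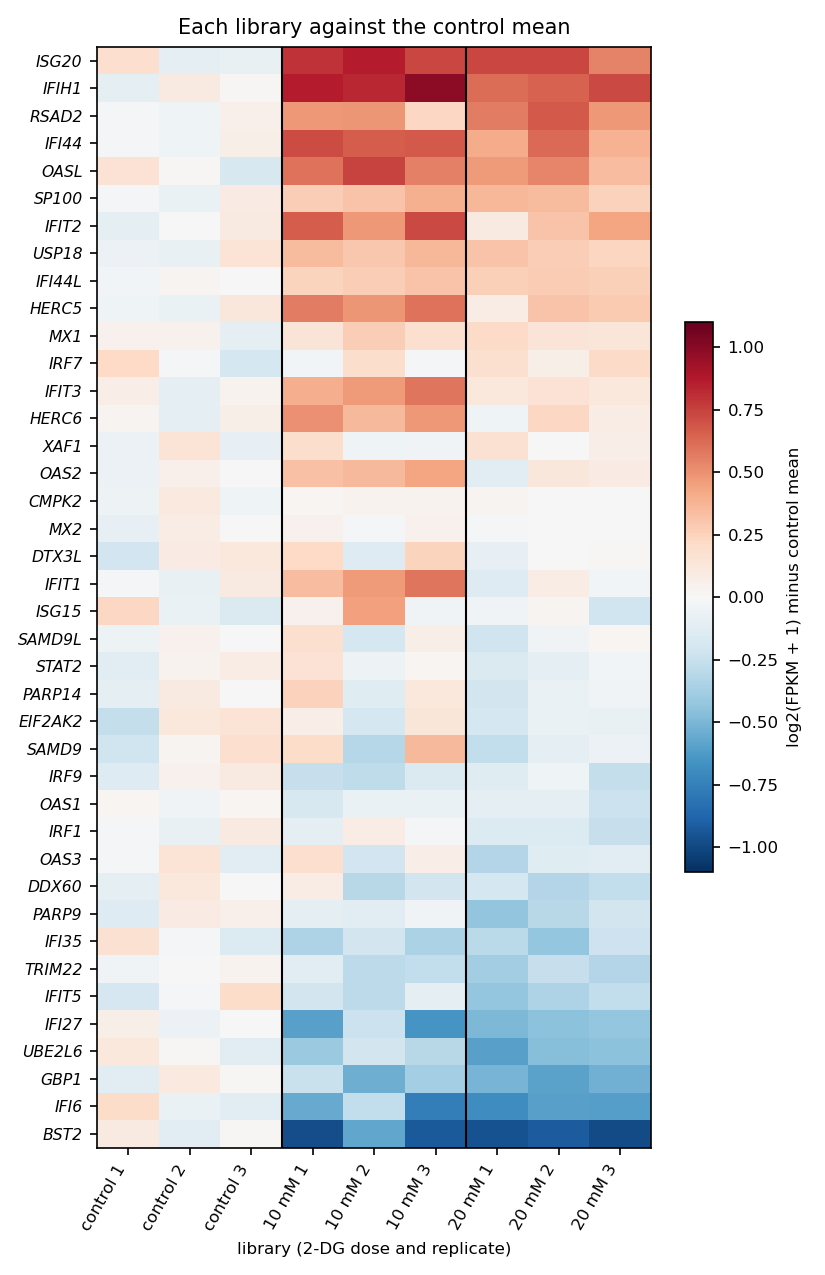
Each library's log2(FPKM + 1) minus the control mean for the 40 genes (rows, ordered by the fold change at 20 mM) in the 9 libraries (columns). ISG20, IFIH1, RSAD2, IFI44 and OASL are red in all 6 treated libraries and BST2, IFI6, GBP1, UBE2L6 and IFI27 are blue in all 6.

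The first role group holds the sensor IFIH1 and 4 transcription factors of the pathway. IFIH1 encodes MDA5, the cytosolic sensor of long double-stranded RNA. It measured 4.16, 4.93 and 4.58 FPKM in the control libraries, 9.08, 8.85 and 9.97 at 10 mM and 7.49, 7.68 and 8.18 at 20 mM 2-DG. Every treated library lay above every control library. IFIH1 was upregulated at both doses (log2 fold change 0.89 ± 0.08 (SE), adjusted p = 3.72e-05 at 10 mM; log2 fold change 0.66 ± 0.08 (SE), adjusted p = 0.000149 at 20 mM), and the mean FPKM was 2.04 and 1.71 times that of the control.

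The 4 transcription factors did not pass the test at either dose. STAT2, a member of the interferon-activated complex, measured 16.1, 17.9 and 18.5 FPKM in the control libraries, 19.6, 16.8 and 17.7 at 10 mM and 15.6, 16.3 and 17.05 at 20 mM 2-DG. The 3 groups overlapped. The log2 fold change of STAT2 had a 95% interval from -0.13 to 0.21 at 10 mM and from -0.26 to 0.07 at 20 mM. IRF9, the DNA-binding member of that complex, measured 0.448, 0.655 and 0.708 FPKM in the control libraries, 0.342, 0.314 and 0.430 at 10 mM and 0.460, 0.547 and 0.338 at 20 mM 2-DG. At 10 mM all 3 libraries lay below the control, with a log2 fold change of -0.23 and an adjusted p of 0.0501 (limma), and at 20 mM the libraries overlapped the control (log2 fold change -0.15 ± 0.08 (SE), adjusted p = 0.178). The IRF9 value is uncertain, since 48.4% of its exon bases (1838 of 3794) are shared on the same strand with another annotated gene, AL136295.5. IRF1, an early interferon-induced factor, measured 3.14, 2.96 and 3.48 FPKM in the control libraries, 2.91, 3.43 and 3.15 at 10 mM and 2.77, 2.77 and 2.51 at 20 mM 2-DG. The 20 mM libraries lay below all control libraries, and the difference did not pass (log2 fold change -0.19 ± 0.09 (SE), adjusted p = 0.129). IRF7, the factor that drives interferon-alpha genes, measured 7.97, 6.62 and 5.74 FPKM in the control libraries, 6.56, 7.86 and 6.60 at 10 mM and 7.72, 7.06 and 7.94 at 20 mM 2-DG, with overlapping groups and adjusted p of 0.782 and 0.321 in limma's test at 10 and 20 mM.

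The IFIT genes lie side by side on chromosome 10, with IFIT2 at chr10:89283694-89309276, IFIT3 at chr10:89327894-89340971, IFIT1 at chr10:89392546-89406486 and IFIT5 at chr10:89414586-89421001 (GRCh38, GENCODE 29). Their proteins bind foreign RNA, and IFIT3 stabilises IFIT1. IFIT1, IFIT2 and IFIT3 were upregulated at 10 mM, and at 20 mM IFIT2 alone of them was called. The doses are tested against each other further on. IFIT1 measured 27.03, 25.7 and 29.4 FPKM in the control libraries, 34.98, 38.3 and 41.6 at 10 mM and 24.7, 29.01 and 26.8 at 20 mM 2-DG. The 10 mM libraries all lay above the control, and the 20 mM libraries overlapped it. IFIT1 was upregulated at the lower dose (log2 fold change 0.47 ± 0.08 (SE), adjusted p = 0.00242), whereas its value at the higher dose was -0.03 ± 0.08 (adjusted p = 0.822, limma).

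IFIT3 was likewise highest at 10 mM and measured 53.7, 47.2 and 52.4 FPKM in the control libraries, 67.7, 71.2 and 77.1 at 10 mM and 55.3, 57.1 and 55.3 at 20 mM 2-DG. The lowest 10 mM library exceeded every control library, and so, by less, did the lowest 20 mM library. IFIT3 rose at 10 mM (log2 fold change 0.49 ± 0.07 (SE), adjusted p = 0.000540) and was not called at 20 mM (log2 fold change 0.13 ± 0.07 (SE), adjusted p = 0.163). IFIT2, which binds AU-rich RNA, measured 24.3, 26.03 and 27.9 FPKM in the control libraries, 41.9, 36.6 and 43.6 at 10 mM and 28.01, 32.5 and 35.5 at 20 mM 2-DG, with no overlap of either dose with the control. It rose at 10 mM (log2 fold change 0.62 ± 0.10 (SE), adjusted p = 0.00111). At 20 mM its call was narrow (log2 fold change 0.28 ± 0.10 (SE), adjusted p = 0.0429) and was lost without control replicate 1, control replicate 2, 20 mM replicate 2 or 20 mM replicate 3, where adjusted p was 0.130, 0.0908, 0.114 and 0.155. Part of IFIT2 (356 exon bases) is shared with AL353751.1 on the same strand.

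IFIT5, which binds uncapped RNA ends, moved the other way. It measured 4.31, 4.95 and 5.93 FPKM in the control libraries, 4.23, 3.92 and 4.62 at 10 mM and 3.48, 3.77 and 3.99 at 20 mM 2-DG. All 20 mM libraries lay below the control and the 10 mM libraries overlapped it. The fall at 20 mM (log2 fold change -0.35 ± 0.11 (SE), adjusted p = 0.0293) lost its call without control replicate 2 or 3 or 20 mM replicate 1 or 2, where adjusted p was 0.0627, 0.0994, 0.101 and 0.0718. At 10 mM it was not called (log2 fold change -0.20 ± 0.11 (SE), adjusted p = 0.195).

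**Figure D3:**
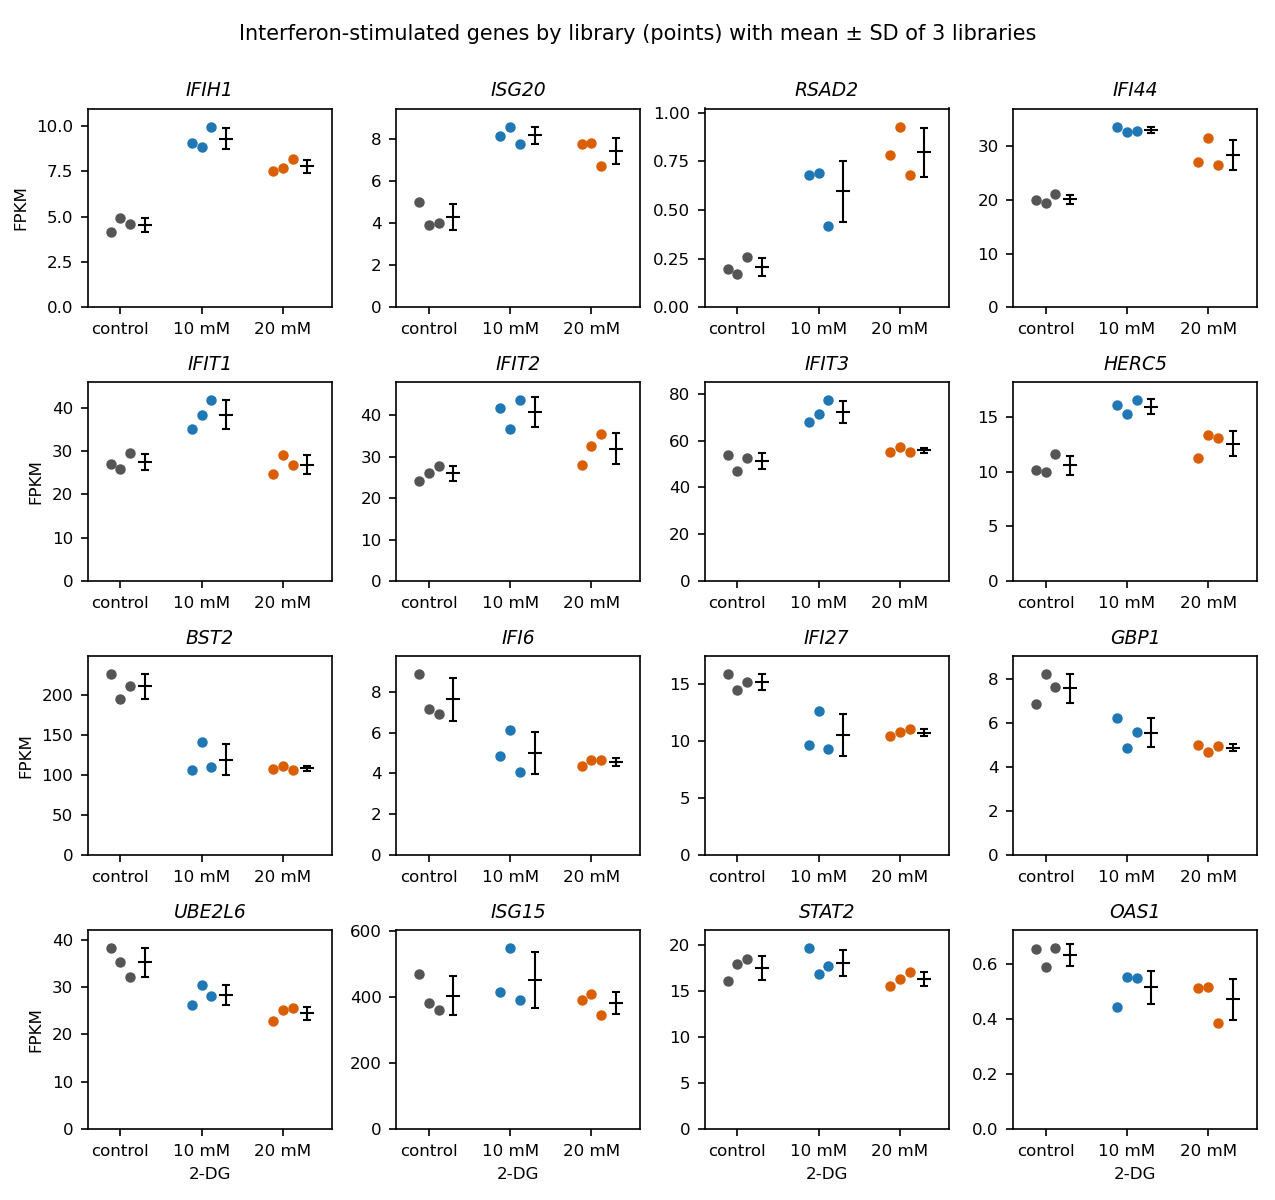
FPKM of 16 of the 40 genes in each library (points) with the mean ± SD of the 3 libraries (black), for control, 10 mM and 20 mM 2-DG, with axes from 0. IFIH1, ISG20, RSAD2 and IFI44 lie above the control at both doses, IFIT1, IFIT3 and HERC5 are highest at 10 mM, BST2, IFI6, IFI27, GBP1 and UBE2L6 lie below the control at both doses, and the groups of ISG15 and STAT2 overlap.

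The OAS proteins make oligoadenylates that activate RNase L, which cuts RNA, and OASL lacks that enzyme activity and supports RNA sensing instead. OAS1, OAS3 and OAS2 are neighbours on chromosome 12, and OASL lies farther along the same chromosome. OASL measured 14.6, 13.1 and 11.4 FPKM in the control libraries, 20.1, 22.5 and 19.5 at 10 mM and 18.4, 19.2 and 16.7 at 20 mM 2-DG. Treated and control libraries did not overlap. OASL was upregulated at 10 mM (log2 fold change 0.63 ± 0.09 (SE), adjusted p = 0.000946) and at 20 mM (log2 fold change 0.45 ± 0.09 (SE), adjusted p = 0.00487). OAS2 averaged 3.86 ± 0.198, 5.28 ± 0.252 and 3.98 ± 0.453 FPKM and was called at 10 mM only (log2 fold change 0.37 ± 0.09 (SE), adjusted p = 0.0111, against log2 fold change 0.03 ± 0.09 (SE), adjusted p = 0.817 at 20 mM).

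OAS1 was low by FPKM, which rests on a length of 13021 bases, with 0.655, 0.587 and 0.656 FPKM in the control libraries, 0.444, 0.551 and 0.547 at 10 mM and 0.511, 0.517 and 0.383 at 20 mM 2-DG. The libraries of both doses lay below the control. OAS1 did not pass (log2 fold change -0.11 ± 0.06 (SE), adjusted p = 0.205 at 10 mM; log2 fold change -0.15 ± 0.06 (SE), adjusted p = 0.0744 at 20 mM), whereas limma-voom on the recovered reads gave an adjusted p of 0.0473 at 20 mM. OAS3 averaged 2.56 ± 0.343, 2.61 ± 0.501 and 2.11 ± 0.242 FPKM with overlapping groups and was called at neither dose.

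MX1, MX2 and GBP1 are GTPases of the dynamin type, the first pair blocking viral replication and nuclear entry and GBP1 attacking membranes of intracellular pathogens. GBP1, also strongly induced by interferon-gamma, measured 6.86, 8.20 and 7.63 FPKM in the control libraries, 6.22, 4.87 and 5.61 at 10 mM and 5.00, 4.70 and 4.94 at 20 mM 2-DG. All treated libraries lay below the control, those of 20 mM within a narrow range. GBP1 fell at both doses (log2 fold change -0.39 ± 0.09 (SE), adjusted p = 0.0118 at 10 mM; log2 fold change -0.54 ± 0.09 (SE), adjusted p = 0.00149 at 20 mM). MX1 measured 0.836, 0.841 and 0.665 FPKM in the control libraries, 0.962, 1.15 and 1.01 at 10 mM and 1.06, 0.957 and 0.952 at 20 mM 2-DG, every treated library above every control library. In MX1 the differences missed the threshold (log2 fold change 0.20 ± 0.07 (SE), adjusted p = 0.0710 at 10 mM; log2 fold change 0.16 ± 0.07 (SE), adjusted p = 0.114 at 20 mM), and with limma-voom on the recovered reads they passed it (adjusted p = 0.0208 and 0.0468). MX2 averaged 0.180 ± 0.0695, 0.198 ± 0.0333 and 0.173 ± 0.00983 FPKM with overlapping groups.

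ISG15 is a ubiquitin-like protein that is attached to other proteins by the conjugating enzyme UBE2L6 and the ligase HERC5 and removed by USP18, which also damps receptor signalling. HERC6 is a relative of HERC5. ISG15 had the highest level of the 40 genes, a mean of 412 FPKM over all 9 libraries. It measured 471, 381 and 359 FPKM in the control libraries, 415, 547 and 391 at 10 mM and 390.1, 409 and 344 at 20 mM 2-DG. The groups overlapped, and 10 mM replicate 2, one of the libraries that ran high in short genes, stood highest. ISG15 was not called, with 95% intervals of the log2 fold change from -0.17 to 0.47 at 10 mM and from -0.40 to 0.24 at 20 mM.

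UBE2L6 measured 38.2, 35.4 and 32.1 FPKM in the control libraries, 26.2, 30.4 and 28.2 at 10 mM and 22.9, 25.1 and 25.5 at 20 mM 2-DG, with both doses below the control. It fell at 20 mM (log2 fold change -0.50 ± 0.08 (SE), adjusted p = 0.000908) and at 10 mM (log2 fold change -0.31 ± 0.08 (SE), adjusted p = 0.0166). The 10 mM call was lost without control replicate 1 (adjusted p = 0.0598). Of the alternatives listed further on, median-ratio factors and leaving out the 2 libraries highest in long genes each ended it too. The ligase HERC5 moved the other way at 10 mM, from a mean of 10.6 ± 0.892 to 15.9 ± 0.653 FPKM (log2 fold change 0.55 ± 0.08 (SE), adjusted p = 0.000851), and at 20 mM missed the threshold at 12.5 ± 1.14 FPKM (log2 fold change 0.23 ± 0.08 (SE), adjusted p = 0.0543). HERC6 averaged 3.66 ± 0.271, 5.34 ± 0.331 and 3.96 ± 0.480 FPKM and was called at 10 mM (log2 fold change 0.44 ± 0.09 (SE), adjusted p = 0.00626) and not at 20 mM (adjusted p = 0.517). USP18 averaged 1.92 ± 0.267, 2.68 ± 0.0898 and 2.53 ± 0.0914 FPKM and was called at both doses (log2 fold change 0.34 ± 0.09 (SE), adjusted p = 0.0177 at 10 mM; log2 fold change 0.28 ± 0.09 (SE), adjusted p = 0.0349 at 20 mM). The USP18 calls were weak. At 10 mM the call was lost without control replicate 1, control replicate 2 or 10 mM replicate 3 (adjusted p = 0.0566, 0.0668 and 0.0550). At 20 mM it was lost without control replicate 1 or 2 or any 1 of the 20 mM libraries (adjusted p from 0.0706 to 0.117). The 20 mM call was also lost with limma-voom on the recovered reads (adjusted p = 0.0788). USP18 also has a near-identical copy on the same chromosome, USP41, and how the authors' counting divided shared reads is not given in the sources used here.

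The RNA and nucleotide effectors held the gene of the 40 with the largest ratio of mean FPKM to the control, RSAD2. RSAD2 encodes viperin, an enzyme that makes a nucleotide which ends viral RNA chains. It was low throughout, with 0.199, 0.169 and 0.258 FPKM in the control libraries, 0.679, 0.692 and 0.416 at 10 mM and 0.782, 0.928 and 0.679 at 20 mM 2-DG, which stands for 125, 376 and 473 reads summed over the 3 libraries of each group. Each treated library exceeded every control library. The mean FPKM of RSAD2 rose 2.86-fold at 10 mM and 3.82-fold at 20 mM. On log2(FPKM + 1), which understates the change of so low a gene, this was 0.40 ± 0.08 (adjusted p = 0.00560, limma) and 0.57 ± 0.08 (adjusted p = 0.000534), and limma-voom gave 1.51 and 1.95.

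ISG20, an exonuclease that degrades RNA, measured 5.02, 3.90 and 4.01 FPKM in the control libraries, 8.15, 8.60 and 7.78 at 10 mM and 7.78, 7.82 and 6.71 at 20 mM 2-DG. Its treated libraries lay well above the control, with no overlap. ISG20 was upregulated at 10 mM (log2 fold change 0.79 ± 0.10 (SE), adjusted p = 0.000264) and 20 mM (log2 fold change 0.67 ± 0.10 (SE), adjusted p = 0.000523). EIF2AK2 encodes PKR, the RNA-activated kinase that stops translation, and averaged 4.18 ± 0.776, 4.18 ± 0.603 and 3.74 ± 0.214 FPKM with overlapping groups. DDX60, a helicase that assists RNA sensing, averaged 1.54 ± 0.198, 1.31 ± 0.335 and 1.12 ± 0.0965 FPKM, all 20 mM libraries below the control, and did not pass (log2 fold change -0.26 ± 0.11 (SE), adjusted p = 0.0963 at 20 mM; adjusted p = 0.0328 with limma-voom). CMPK2, a nucleotide kinase gene next to RSAD2, had the lowest level of the 40, a mean of 0.0570 FPKM. Its control libraries held 1, 20 and 2 reads, so no difference could be seen at this depth.

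The 3 small membrane proteins fell at both doses. BST2 encodes tetherin, which holds budding virus particles at the cell surface, and was the second most expressed of the 40 genes. It measured 226, 195 and 212 FPKM in the control libraries, 106, 141 and 111 at 10 mM and 108, 111 and 106 at 20 mM 2-DG. The control and treated libraries were far apart, and the 20 mM libraries lay within a narrow range. The mean FPKM of BST2 fell by 43.4% at 10 mM (log2 fold change -0.82 ± 0.10 (SE), adjusted p = 0.000308). At 20 mM it fell by 48.6% (log2 fold change -0.95 ± 0.10 (SE), adjusted p = 8.65e-05).

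IFI6, an endoplasmic reticulum protein that restricts viral replication, measured 8.84, 7.14 and 6.88 FPKM in the control libraries, 4.83, 6.12 and 4.07 at 10 mM and 4.35, 4.67 and 4.65 at 20 mM 2-DG. No treated library reached the control range. IFI6 fell at 10 mM (log2 fold change -0.53 ± 0.13 (SE), adjusted p = 0.0121) and 20 mM (log2 fold change -0.63 ± 0.13 (SE), adjusted p = 0.00396). IFI27, a mitochondrial and nuclear-envelope protein, measured 15.9, 14.5 and 15.2 FPKM in the control libraries, 9.69, 12.7 and 9.34 at 10 mM and 10.5, 10.8 and 11.1 at 20 mM 2-DG. Here too the treated libraries lay below the control, 10 mM replicate 2 closest to it. IFI27 fell by similar amounts at the lower dose (log2 fold change -0.49 ± 0.10 (SE), adjusted p = 0.00489) and the higher (log2 fold change -0.46 ± 0.10 (SE), adjusted p = 0.00543).

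IFI44 and IFI44L are adjacent on chromosome 1, at chr1:78649796-78664078 and chr1:78619922-78646145. IFI44 measured 19.9, 19.4 and 21.00 FPKM in the control libraries, 33.6, 32.5 and 32.7 at 10 mM and 27.02, 31.5 and 26.5 at 20 mM 2-DG. All treated libraries exceeded the control. IFI44 rose at 10 mM (log2 fold change 0.69 ± 0.07 (SE), adjusted p = 9.29e-05) and 20 mM (log2 fold change 0.47 ± 0.07 (SE), adjusted p = 0.000616). IFI44L was a low gene, averaging 0.194 ± 0.0248, 0.446 ± 0.0325 and 0.437 ± 0.00964 FPKM, a rise of 2.30-fold and 2.26-fold (log2 fold change 0.28 ± 0.04 (SE), adjusted p = 0.00117 at 10 mM; log2 fold change 0.27 ± 0.04 (SE), adjusted p = 0.00103 at 20 mM). IFI35, a cytosolic protein that binds the interferon-induced NMI, fell from 15.02 ± 1.80 FPKM to 11.98 ± 0.743 at 10 mM (log2 fold change -0.30 ± 0.09 (SE), adjusted p = 0.0331) and 11.8 ± 0.895 at 20 mM (log2 fold change -0.32 ± 0.09 (SE), adjusted p = 0.0210). The IFI35 calls depended on single libraries and on the processing. The 10 mM call was lost without control replicate 1 or 2, 10 mM replicate 1 or 3, or 20 mM replicate 1 (adjusted p = 0.106, 0.0685, 0.0784, 0.0956 and 0.0510). The 20 mM call was lost without control replicate 1 or 20 mM replicate 1 or 2 (adjusted p = 0.0693, 0.0514 and 0.0845). Of the alternatives listed further on, no filter, median-ratio factors and removal of the length trend each ended both IFI35 calls. The pairwise fit and the replicate block also ended the 10 mM call.

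PARP9 and DTX3L lie head to head on chromosome 3 and encode partners in a complex that ADP-ribosylates and ubiquitinates proteins, and PARP14 is a related enzyme. PARP9 averaged 1.82 ± 0.240, 1.65 ± 0.0706 and 1.27 ± 0.182 FPKM and was called lower at 20 mM (log2 fold change -0.31 ± 0.10 (SE), adjusted p = 0.0284) and not at 10 mM (log2 fold change -0.09 ± 0.10 (SE), adjusted p = 0.546). The call was lost without control replicate 2 or 3 or 20 mM replicate 1 or 2 (adjusted p = 0.0951, 0.0843, 0.111 and 0.0719). DTX3L, at 4.40 ± 0.668, 4.83 ± 0.834 and 4.28 ± 0.197 FPKM, and PARP14, at 4.97 ± 0.429, 5.33 ± 0.852 and 4.55 ± 0.323, overlapped between groups and were called at neither dose.

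Of the remaining 5 effectors, SP100 rose and TRIM22 fell. SP100, a component of nuclear bodies that silence viral DNA, measured 3.78, 3.62 and 4.14 FPKM in the control libraries, 4.85, 5.01 and 5.33 at 10 mM and 5.24, 5.17 and 4.79 at 20 mM 2-DG. Treated libraries all lay above the control, and the libraries of both doses overlapped. SP100 was upregulated at 10 mM (log2 fold change 0.32 ± 0.08 (SE), adjusted p = 0.0112) and 20 mM (log2 fold change 0.32 ± 0.08 (SE), adjusted p = 0.00864). TRIM22, a ubiquitin ligase with antiviral activity, averaged 0.848 ± 0.0509, 0.583 ± 0.106 and 0.479 ± 0.0687 FPKM and fell at 20 mM (log2 fold change -0.32 ± 0.07 (SE), adjusted p = 0.00463). Its fall at 10 mM (log2 fold change -0.22 ± 0.07 (SE), adjusted p = 0.0317) lost the call without control replicate 2 or 3, 10 mM replicate 2 or 3, or 20 mM replicate 3 (adjusted p = 0.0739, 0.0893, 0.0890, 0.0968 and 0.0501). Of the alternatives listed further on, a pseudocount of 0.1, no filter, the replicate block and the pairwise fit each ended this call too. So did leaving out the 2 libraries highest in short genes. On the same strand, TRIM22 shares 642 exon bases with OR56B1 (mean 0 FPKM) and SP100 544 with HMGB1P3 (mean 0.0107 FPKM). SAMD9 and SAMD9L, which restrict poxviruses, and XAF1, a pro-apoptotic factor, overlapped between groups, with 2.92 ± 0.546, 1.36 ± 0.0877 and 0.236 ± 0.117 FPKM in the control and 2.53 ± 0.261, 1.23 ± 0.190 and 0.302 ± 0.0764 at 20 mM.

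A direct comparison of the 2 doses addressed whether the higher dose moved the genes further. No member passed an adjusted p under 0.05 in limma's test, nor did limma-voom call any, and 0.0% of all genes were called in either direction. At an unadjusted p under 0.05, 10 of the 40 were lower at 20 mM than at 10 mM and 0 higher, where 4.13% of all genes were lower and 2.75% higher. These 10 were IFIT1, IFIT2, IFIT3, OAS2, HERC5, HERC6, IFI44, IFIH1, UBE2L6 and PARP9. UBE2L6 and PARP9 lay farther below the control at 20 mM (log2 fold change -0.50 and -0.31) than at 10 mM (-0.31 and -0.09). The others of the 10 had been called higher at 10 mM and lay nearer to the control at 20 mM. IFIT1 had the largest difference of the 40, -0.50 ± 0.08 on the log2 scale (adjusted p = 0.123, limma), and no 20 mM library reached the 10 mM range. IFIT3 followed a similar course (-0.36 ± 0.07, adjusted p = 0.163), as did HERC6 (-0.36 ± 0.09, adjusted p = 0.383) and OAS2 (-0.34 ± 0.09, adjusted p = 0.378). The median log2 difference of the 40 was -0.13, with 34 of 40 below 0, and that of all genes tested -0.01, with 54.8% below 0. The number of 10 became 6 without 20 mM replicate 1, and it was 16 without the 2 libraries that ran highest in short genes, an alternative added after the data were seen.

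Gene length was set beside these results because libraries differed by it. The 9 genes called higher at 20 mM were 1858 to 14134 bases long (median 5659) and the 9 called lower 936 to 8938 bases (median 4144). Over all genes with a mean of at least 1 FPKM, the median log2 fold change at 20 mM was -0.04 in genes of up to 2000 bases and -0.01 in those over 8000. With the length trend of every library removed, an alternative added after the data were seen, 14 were called higher and 6 lower at 10 mM and 10 higher and 9 lower at 20 mM. Without the 2 libraries that ran highest in long genes, the number lower at 10 mM went from 7 to 4 and the number higher from 14 to 11, HERC6, RSAD2 and USP18 losing the call. The shortest called genes, IFI6 (936 bases) and BST2 (1101 bases), fell. Of the 4 called genes between 1858 and 2062 bases long, USP18 and IFI44 rose and IFI35 and UBE2L6 fell.

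**Figure D4:**
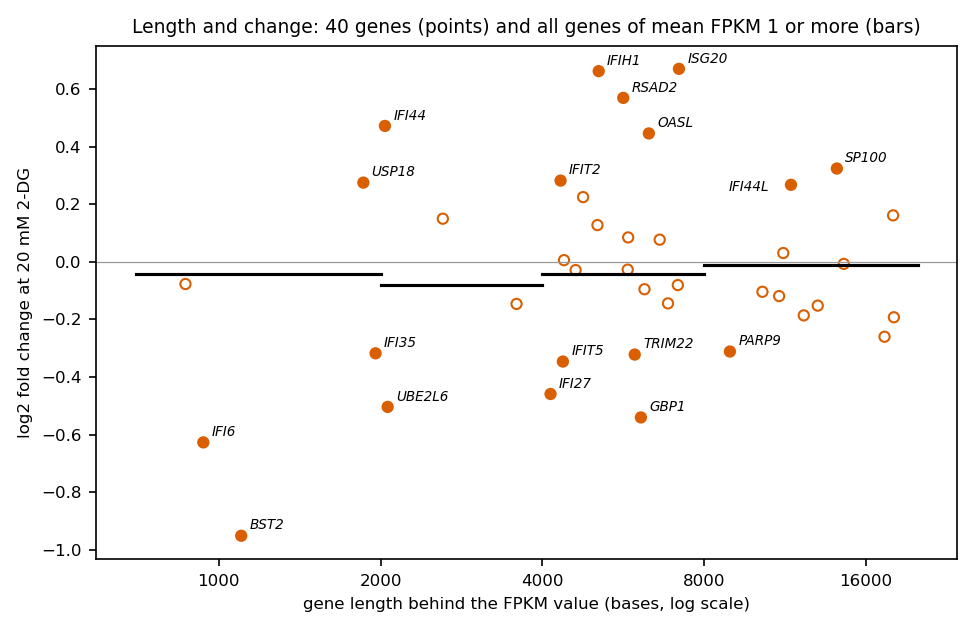
Log2 fold change at 20 mM 2-DG of the 40 genes (points, filled at an adjusted p under 0.05) against the gene length behind the FPKM value in bases, on a log axis. Black bars are the medians of all genes with a mean of at least 1 FPKM in 4 length classes, which lie between -0.08 and -0.01, and called genes of both directions appear in each class that holds several members.

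The other genes of the pathway were taken from lists written from general knowledge, and their counts stand beside the 12.1% of all genes called higher and 17.5% lower at 10 mM, and the 15.4% and 21.6% at 20 mM. None of the 21 interferon genes listed (types I, II and III) passed the filter on low values. In all libraries together, only IFNL1 had any read, from 0 to 10 per library. A count of 0 in a library can still arise where up to about 3 reads would be expected on average, so low expression could be missed. The receptor and JAK-STAT list held 11 genes, of which 0 were higher and 6 lower at 10 mM, and 0 higher and 5 lower at 20 mM. IFNLR1, a subunit of the type III interferon receptor (log2 fold change -0.46 ± 0.10 (SE), adjusted p = 0.00424), and the kinase TYK2 (log2 fold change -0.36 ± 0.06 (SE), adjusted p = 0.00197) were lower at 20 mM. The type I receptor subunit IFNAR1 was not called at 20 mM (log2 fold change 0.27 ± 0.11 (SE), adjusted p = 0.0674). The other subunit, IFNAR2, was a low gene, with 95 reads in the 3 control libraries together and 39 in those of 10 mM. It was called lower at 10 mM (log2 fold change -0.14 ± 0.04 (SE), adjusted p = 0.0420), where its mean FPKM was 0.404 times that of the control. At 20 mM IFNAR2 was not called (adjusted p = 0.366).

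Among 17 tested sensors and adaptors of nucleic acid sensing, 3 were higher and 1 lower at 10 mM, and 3 higher and 2 lower at 20 mM, shares near or below those of all genes at 20 mM. IKBKE, a kinase that activates IRF3 and IRF7, fell from 14.1 ± 1.61 to 7.43 ± 0.599 FPKM at 20 mM (log2 fold change -0.84 ± 0.10 (SE), adjusted p = 0.000128), while the DNA sensor IFI16 rose from 22.1 ± 3.05 to 31.04 ± 1.03 FPKM (log2 fold change 0.48 ± 0.10 (SE), adjusted p = 0.00407). DDX58, the RIG-I gene and closest relative of IFIH1 in function, was low and not called (log2 fold change 0.13 ± 0.07 (SE), adjusted p = 0.157 at 20 mM). Its mean FPKM was 1.72 and 1.65 times the control at 10 and 20 mM. With limma-voom its log2 fold changes were 0.75 and 0.73 (adjusted p = 0.0825 and 0.0800). Besides IFI16, those called higher at 10 mM were DHX58 (log2 fold change 0.42 ± 0.12 (SE), adjusted p = 0.0212) and the low gene TLR7 (0.31 ± 0.07, adjusted p = 0.00981). Of 13 negative regulators, 1 was higher and 3 lower at each dose, which is also near or below the shares of all genes at 20 mM. At 20 mM SOCS1 (log2 fold change -0.85 ± 0.11 (SE), adjusted p = 0.000206), SOCS3 (log2 fold change -0.58 ± 0.08 (SE), adjusted p = 0.000282) and the phosphatase PTPN6 (log2 fold change -0.64 ± 0.07 (SE), adjusted p = 7.46e-05) fell, and FOXO3 (log2 fold change 0.44 ± 0.11 (SE), adjusted p = 0.0101) rose. The scale of log2(FPKM + 1) understates the low genes PTPN6 and SOCS1, whose mean FPKM fell by 62.1% and 59.0%.

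The list of genes best known as interferon-gamma targets had 14 tested members, 1 higher and 7 lower at 10 mM, and 1 higher and 9 lower at 20 mM, and its median log2 fold change at 20 mM was -0.37, against -0.02 for all genes tested. Those that fell included the immunoproteasome subunits PSMB9 (log2 fold change -0.92 ± 0.11 (SE), adjusted p = 0.000128 at 20 mM) and PSMB8 (log2 fold change -0.59 ± 0.07 (SE), adjusted p = 0.000157) and the GTPase GBP2 (log2 fold change -0.76 ± 0.10 (SE), adjusted p = 0.000246), a relative of GBP1. The 1 that rose was WARS1 (log2 fold change 1.27 ± 0.05 (SE), adjusted p = 3.42e-07), which is also the cytosolic tryptophanyl-tRNA synthetase. A further list of 41 tested type I ISGs, outside the 40, had 6 higher and 12 lower at 10 mM and 7 higher and 13 lower at 20 mM, with a median of -0.13 at 20 mM. IFI16 and TRIM25 stood both on this list and on that of the sensors, so IFI16 was counted as higher in each. TNFSF10, the death ligand TRAIL (log2 fold change -1.38 ± 0.10 (SE), adjusted p = 8.86e-06), IFITM1 (log2 fold change -0.95 ± 0.10 (SE), adjusted p = 6.71e-05) and IFITM2 (log2 fold change -0.82 ± 0.07 (SE), adjusted p = 1.79e-05), which block viral entry, fell, and IFITM3 was not called (log2 fold change 0.05 ± 0.09 (SE), adjusted p = 0.715). LAMP3, a lysosomal membrane protein also known as a target of the unfolded protein response, rose (log2 fold change 1.78 ± 0.13 (SE), adjusted p = 6.41e-06).

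**Figure D5:**
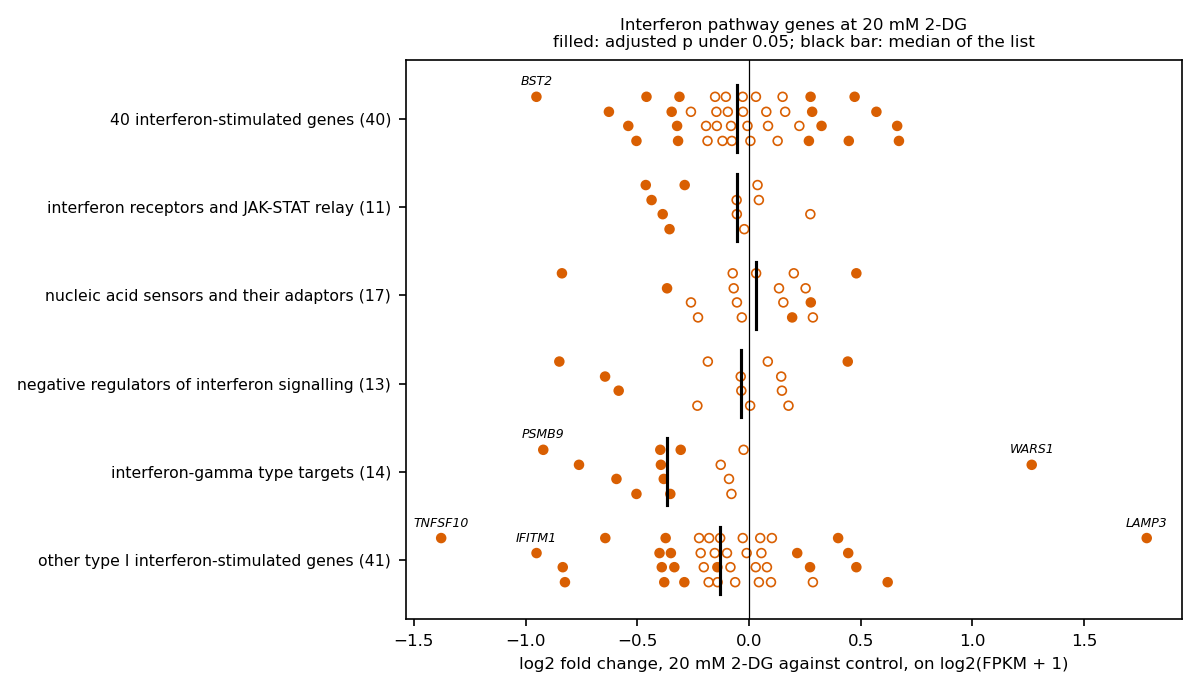
Log2 fold change at 20 mM 2-DG of the 40 genes and of the tested members of 5 lists of pathway genes (points, filled at an adjusted p under 0.05), with the median of each list as a black bar. The median is -0.05 for the 40 genes and -0.37 for the interferon-gamma type list, and WARS1 and LAMP3 stand far to the right of their lists. IFI16 and TRIM25 are drawn both in the sensor list and in that of other type I ISGs.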

How the data were processed

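The authors treated MDA-MB-231 cells for 24 h, extracted total RNA with a Qiagen kit, prepared SMARTER libraries and had them sequenced on an Illumina NovaSeq. The deposited values are FPKM, with a separate file for each of the 9 libraries. The submitters' processing notes name the build GRCh38 (hg38). The aligner, the counting tool, the use of strand and the annotation are not given in the sources used here, and the study's methods name DESeq2 for its gene calls. The lactate-treated cells of the study are not analysed here. Values of some genes on the lists are not reported here.

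Members were matched by gene name. The members, the pathway lists and the tests were chosen with earlier results of these data known, so no count here is independent support for a pattern. Per-library values are given for the 12 members with the largest change at 20 mM among those called, and for ISG15, IFIT1, MX1, OAS1, IRF1, IRF7, IRF9 and STAT2; those of IFIT2 and IFIT3, and the genes named from the pathway lists, were added after their values were seen.

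Whole reads (or fragments; which is not known) were recovered from the FPKM: the library total that makes FPKM times length whole was found from GENCODE 29 exon lengths, and then a length for each gene. Whole values, within 0.0005, came out for 32806 of 32806 genes above 0 and made up 99.8% to 99.9% of the totals. For 15995 of these genes the GENCODE 29 length gave them. For the others a length was searched that made the values whole, so in genes of few reads whole values check little. The recovered reads are not the authors' counts. Genes were kept for testing if 3 or more libraries had 10 reads or more (scaled to the median depth) and the 9 libraries summed to 15 or more. The test was limma 3.58.1 (R 4.3.3) with a trend on log2(FPKM + 1), all 9 libraries in 1 fit and no replicate block, with Benjamini-Hochberg adjustment over 16572 genes. A call was an adjusted p under 0.05. Same-numbered replicates did not deviate together (correlations from -0.41 to 0.29 over 9 pairs, 3 of them over 0.1), so numbers were not taken as pairs. Among differently numbered libraries, control replicate 1 and 10 mM replicate 2 deviated together (0.52), as did control replicate 2 and 10 mM replicate 1 (0.49). These are the libraries that ran high in short and in long genes. The fit took all libraries as independent. Alternatives were a pseudocount of 0.1, no filter, a mean of at least 1 FPKM, median-ratio factors, the thresholds of the study, limma-voom on the recovered reads, a replicate block, pairwise fits, each library left out and, added after the data were seen, 3 settings for gene length and the thresholds of the study with limma-voom.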

Additional observations from a re-analysis of the deposited data

How the results depend on the processing

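Over the 19 alternatives that refit each gene under the adjusted p, which leaves out the thresholds of the study, 735 values of the 39 calls (a gene at a dose) were computed: 666 kept direction and call, 69 were no longer called and 0 reversed, and 26 of the 39 calls held in every one of them that tested the gene. At the thresholds of the study the numbers called were 0 higher and 0 lower at 10 mM and 0 and 0 at 20 mM, since no fold change on log2(FPKM + 1) passed 1; at the same thresholds with limma-voom on the recovered reads, added after the data were seen, they were 3 higher and 0 lower at 10 mM and 2 and 0 at 20 mM. Without the 2 libraries that ran highest in long genes, 4 genes were lower at 10 mM, where IFI35, IFI6 and UBE2L6 lost the call, and 11 were higher, where HERC6, RSAD2 and USP18 lost it. The number lower at 20 mM than at 10 mM at an unadjusted p under 0.05 was 16 without the 2 libraries highest in short genes. Leaving out 1 library at a time gave 13 to 14 higher and 5 to 7 lower at 10 mM, 7 to 10 higher and 6 to 10 lower at 20 mM, and 6 to 14 lower between the doses at the unadjusted threshold. The cause of these shifts was not tested.

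With the replicate block, 14 were higher and 5 lower at 10 mM and 8 higher and 9 lower at 20 mM, and 0 between the doses in either direction. The labels' numbers did not pair the libraries, and the block ended the calls of IFI35 and TRIM22 at 10 mM and of USP18 at 20 mM. No filter left 6 lower at 20 mM, with 32806 genes in place of 16572 in the adjustment. It ended the 20 mM calls of IFI35, IFIT5 and PARP9, which were lower, and of IFIT2, which was higher. The pairwise fit ended the 10 mM call of USP18.

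The log scale limits low genes: with limma-voom, the log2 fold changes of RSAD2 were 1.51 (10 mM) and 1.95 (20 mM) and those of IFI44L 1.20 and 1.18. Falls were limited too, and with limma-voom those of TRIM22 were -0.56 (10 mM) and -0.81 (20 mM). CMPK2, at 23 reads in the control libraries together, was too shallow for any statement.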

Other observations

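Some of the 40 genes varied more within a dose than between doses. At 10 mM, replicate 2, one of the libraries that ran high in short genes, was the lowest of its group for SAMD9 (3.48, 2.13 and 3.99 FPKM in replicates 1, 2 and 3), DTX3L (5.26, 3.87 and 5.37), PARP14 (6.11, 4.42 and 5.46) and EIF2AK2 (4.40, 3.49 and 4.64), whose lengths behind the FPKM value run from 5768 bases (DTX3L) to 11036 bases (EIF2AK2). XAF1, a pro-apoptotic ISG, had 0.179, 0.371 and 0.159 FPKM in the control and 0.409, 0.192 and 0.202 at 10 mM, so that 1 library stood apart in each of these groups. CMPK2 stood apart in control replicate 2, with 20 of the 23 control reads. IFNL1, the only interferon gene with any read, had 1, 10 and 3 reads in the control libraries, the most also in control replicate 2.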
